A study of Rattus norvegicus with 8 samples.

Results

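The circadian clock genes of the rat retina were examined as a set of 10 genes: Per1, Per2, Per3, Cry1, Cry2, Arntl, Clock, Nr1d1, Nr1d2 and Dbp. They were chosen by gene name among the non-control spots of the arrays, with every probe included, and the rule uses no measured value. They make up 10 of the 26334 gene names on the array and 10 of the 16307 genes that passed the spot filter. They are covered by 16 probes on 25 spots, of which 15 probes and 22 spots were kept. The question was whether the retinas differed in clock phase, that is, whether genes that peak at one time of day were high in some retinas while genes that peak at the opposite time were low.

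The retinas came from female Lister Hooded rats given as 8 weeks old, kept on a light-dark cycle. The study's schedule for the rats used in cell counts puts surgery at that age. In the ONC group (n = 4) the optic nerve was crushed for 10 s at 3 mm behind the optic disc, which injures the axons of the retinal ganglion cells (RGCs), the output neurons of the retina. Surgery in the CTR group (n = 4) was a sham, in which the nerve was exposed but left uncrushed. Retinas were taken 2 weeks after surgery and each was profiled on its own. The crush is an acute injury of an otherwise healthy nerve, and the tissue is whole retina, in which fewer cells of a type and less RNA per cell cannot be told apart. No source used here gives the hour of dissection, so nothing below can be set against the time of day. By the labels, array n of the 4 two-color arrays carried CTR retina n in Cy5 and ONC retina n in Cy3, and each retina is named here by its group and number. ONC against CTR is thus also Cy3 against Cy5 on every array, and these cannot be told apart. The methods of the study state another layout, with retinas of the same group sharing an array.

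The mammalian clock is a feedback loop of transcription. The proteins of Clock and Arntl (also called Bmal1) pair up and switch on the Per and Cry genes through a short DNA element, the E-box, and the Per and Cry proteins then shut that pair down. The pair also drives Nr1d1 and Nr1d2, whose products (REV-ERB alpha and beta) repress Arntl through an element called RORE, and Dbp, whose product activates genes through the D-box. In tissues with a running clock the transcripts of Dbp, the Per genes and the Nr1d genes peak around the opposite time of day from that of Arntl, Cry1 follows with a delay, and Clock itself cycles weakly. The retina holds such a clock in several of its cell types, where it times dopamine and melatonin signaling and visual sensitivity.

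Sequences before the annotated start sites were searched for the letters of these elements. RefSeq windows of GRCr8 reaching from 250 bases before to 50 bases after a start site were found for 9 of the 10 genes, 11 windows in all. Both strands were searched for CACGTG (the E-box), CACGTT (an E-box variant), TTANGTAA (the D-box), NTAGGTCA (the RORE) and TGACGTCA (the CRE, through which cAMP acts). Of 33469 such windows of all genes, 6.42% hold CACGTG, 4.83% CACGTT, 2.24% TTANGTAA, 2.62% NTAGGTCA and 1.83% TGACGTCA. Stretches from the 3 genes below are shown because they stand for the positive arm (Arntl) and for the arm it drives (Nr1d1 and Per2), with the matches in capitals and the strand of the gene read 5′ to 3′. The Arntl stretch lies at chr1:176766178-176766327 on the plus strand and its RORE match starts 17 bases before the start site. The Nr1d1 stretch lies at chr10:84229545-84229694 on the minus strand and its E-box starts at position -191. The Per2 stretch lies at chr9:99496994-99497213 on the minus strand, with the D-box match at position -192 and the E-box variant at position -62.

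Arntl: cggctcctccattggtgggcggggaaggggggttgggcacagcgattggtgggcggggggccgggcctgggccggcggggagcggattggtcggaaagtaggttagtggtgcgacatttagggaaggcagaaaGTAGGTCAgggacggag

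Nr1d1: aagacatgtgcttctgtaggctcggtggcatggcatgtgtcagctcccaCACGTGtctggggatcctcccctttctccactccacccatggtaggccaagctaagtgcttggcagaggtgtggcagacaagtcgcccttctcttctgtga

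Per2: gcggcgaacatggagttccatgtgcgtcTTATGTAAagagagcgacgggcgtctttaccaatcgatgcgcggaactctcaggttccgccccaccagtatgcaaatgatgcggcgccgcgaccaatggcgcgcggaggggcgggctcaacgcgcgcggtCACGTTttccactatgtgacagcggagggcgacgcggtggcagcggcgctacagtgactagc

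A second Nr1d1 window, which starts from another annotated site, held the E-box variant at position -174 (read as AACGTG on the gene's strand), and the Cry2 window held it at position -212. No window of the set held the CRE letters, and the windows of Per1, Per3, Clock, Nr1d2 and Dbp held none of the 5 motifs. These are matches of letters in short windows, not measured binding sites.

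Levels are given as log2 intensity after background subtraction, loess within each array and centering of each channel on its median, averaged over the spots and then the probes of a gene. A level of 0 is that of the median spot kept, and levels of different genes rest on different probes and are not compared with each other. Median foreground ranged from 218.1 to 626.0 over the 8 channels against a median background of 26 to 56.5. Of the markers of retinal cells, 7 of 8 rod, 7 of 8 cone and 7 of 7 bipolar cell genes on the array passed the filter, as did 8 of 10 RGC genes. The RGC genes, taken as deviations from their own means and summarized by the median, stood at 1.16 to 1.37 in CTR2, ONC1, ONC2 and ONC3 and at -1.57 to -0.97 in CTR1, CTR3, CTR4 and ONC4. All 8 RGC genes had a higher ONC mean, with a median difference of 1.29 (0 called by limma, against 0.497% of all genes, and 0 with unadjusted p under 0.05, against 18.6%). This direction runs against the labels, since a crush is known to kill RGCs, and it is opposite to that given by the study. Medians of markers of other cells went both ways. The median difference was -0.32 for 7 cone genes, with every CTR median (0.084 to 0.25) above every ONC median (-0.18 to -0.093). It was -0.32 for 6 Muller glia genes and -0.35 for 6 microglia genes, and 5 lens genes had their highest median, 1.22, in CTR2. For 7 bipolar cell genes the median difference was 0.23, with 6 higher in ONC, and for 4 pigment epithelium genes it was 0.19, with 3 higher. Of these genes 0 were called by limma. Unadjusted p was under 0.05 in 2 cone, 2 Muller glia, 2 microglia, 1 lens, 3 bipolar cell and 1 pigment epithelium gene, against 18.6% of all genes. With the array as a block 2 of the 7 cone and 2 of the 6 Muller glia genes were called, against 7.69% of all genes. Their part in the clock gene levels was not tested. CTR and ONC therefore mean the channels so labeled, and every sign of ONC minus CTR depends on those labels, which were kept throughout.

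Of the 10 clock genes, 0 differed between ONC and CTR after adjustment (limma, Benjamini-Hochberg over all genes, adjusted p of 0.134 to 0.886), where 81 of 16307 genes (0.497%) passed. Without adjustment 1 gene, Cry1, was under 0.05, against 18.6% of all genes tested. In 5 genes the ONC mean was higher and in 5 it was lower. The median difference was -0.00026 (log2) against -0.013 for all genes, and the median size of the difference was 0.14 for the clock genes and 0.14 for all genes. With the array as a block, which sets each ONC channel against the CTR channel of the same array, 1254 genes (7.69%) passed and 0 clock genes did. The split of the genes called also depended on scaling, with 46.9% higher in ONC here and 71.0% of 3194 when channels were scaled to their medians without loess.

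**Figure D1:**
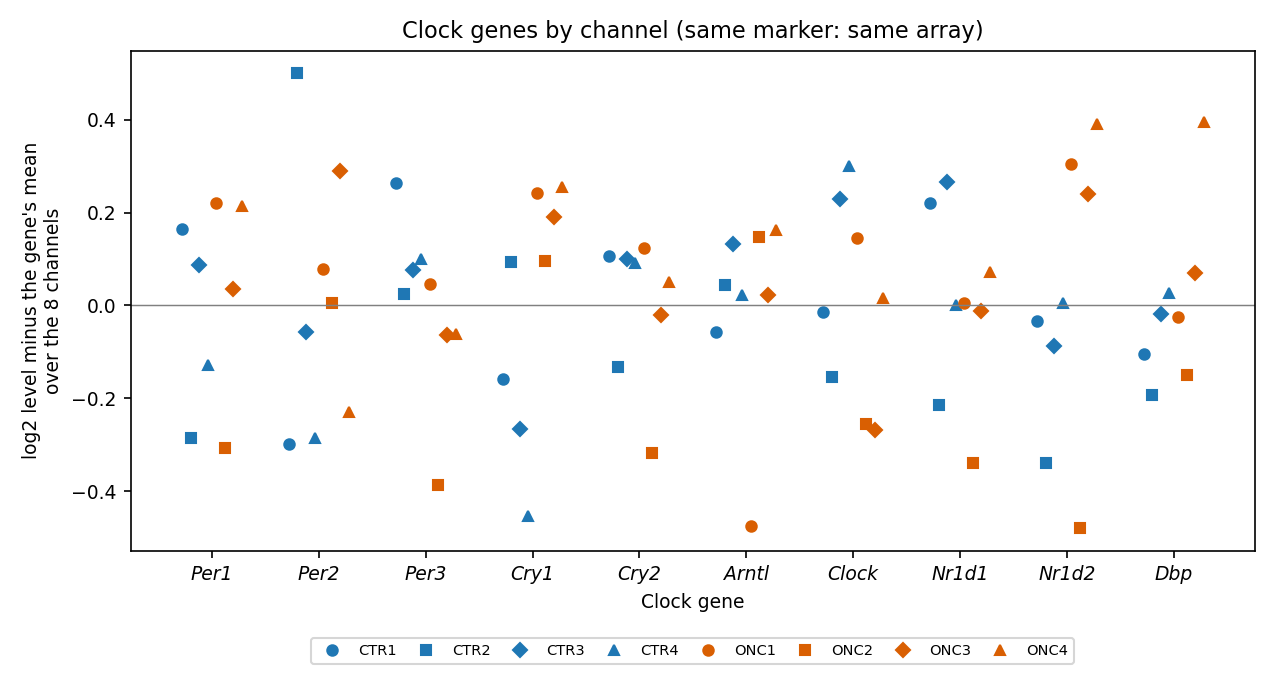
Log2 level of each clock gene in each of the 8 channels, less the gene's mean over the channels (vertical axis, log2 units), with CTR in blue, ONC in orange and 1 marker shape per array. The squares of array 2 lie at the bottom for Per1, Cry2, Nr1d1, Nr1d2 and Dbp, and Cry1 is the gene in which all orange points lie above all blue ones.

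The negative limb of the loop came first. Cry1, whose protein is the strongest repressor of the Clock and Arntl pair, stood at 1.87, 2.13, 1.77 and 1.58 in CTR1 to CTR4 and at 2.28, 2.13, 2.22 and 2.29 in ONC1 to ONC4. Every ONC channel lay above every CTR channel, although ONC2 exceeded CTR2, its partner on array 2, by only 0.00048. Non-overlapping groups were seen in 1 of the 10 clock genes and in 12.7% of all genes. The ONC mean of Cry1 was higher by 0.39 (95% interval 0.12 to 0.66, n = 4 and 4, limma, unadjusted p = 0.0091 and adjusted p = 0.134). With the array as a block the adjusted p was 0.088, and over all alternatives run it ranged from 0.067 to 0.598.

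Cry2, the partner repressor, stood at -1.15, -1.39, -1.16 and -1.17 in CTR1 to CTR4 and at -1.14, -1.58, -1.28 and -1.21 in ONC1 to ONC4. The channels of array 2 were the lowest of their groups, and the other 3 CTR channels lay between -1.17 and -1.15. The ONC mean differed from the CTR mean by -0.082 (95% interval -0.34 to 0.18, adjusted p = 0.761), with ONC higher on 1 of 4 arrays.

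Per1, which light and hormones can induce directly as well as the clock, stood at -3.33, -3.78, -3.41 and -3.62 in CTR1 to CTR4 and at -3.27, -3.80, -3.46 and -3.28 in ONC1 to ONC4. The difference was 0.081 (95% interval -0.25 to 0.41, adjusted p = 0.827) and its sign was split over the arrays, 2 against 2. Per1 was the clock gene whose call changed with the processing: scaling of the channels without loess put it higher in ONC by 0.69 (adjusted p = 0.029), a setting in which 19.6% of all genes were called. Its probe gave a foreground of 2.56 to 5.68 times the background, close to the filter limit of 2.

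Per3, a family member with a smaller part in the loop, stood at -1.68, -1.92, -1.87 and -1.85 in CTR1 to CTR4 and at -1.90, -2.34, -2.01 and -2.01 in ONC1 to ONC4. ONC was lower on 4 of 4 arrays, with differences of -0.41 to -0.14, and the means differed by -0.23 (95% interval -0.48 to 0.015, unadjusted p = 0.062, adjusted p = 0.299). The difference was -0.031 with scaling without loess and -0.13 from the scanner's processed signals. The groups overlapped, since ONC1 lay above CTR2. Each of the 3 Per3 probes was lower in ONC on average, with differences of -0.43, -0.15 and -0.12.

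Per2, a core repressor of the loop, is read by 1 probe printed on 10 spots, of which 8 passed the filter on every array. It stood at -0.98, -0.18, -0.74 and -0.97 in CTR1 to CTR4 and at -0.61, -0.68, -0.40 and -0.91 in ONC1 to ONC4. CTR2 was the highest channel and CTR1 the lowest. The SD over the 8 spots was 0.39 in CTR1 and 0.42 in ONC1 and 0.068 to 0.18 on the other 3 arrays, so the level was read less precisely on array 1. The ONC mean differed by 0.071 (95% interval -0.35 to 0.50, adjusted p = 0.886), with -0.49 on array 2 and 0.057 to 0.38 on the others, and 0.26 without array 2. The sign of the difference turned without CTR1 (-0.016), without CTR4 (-0.012) and without ONC3 (-0.013), each left out alone.

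**Figure D2:**
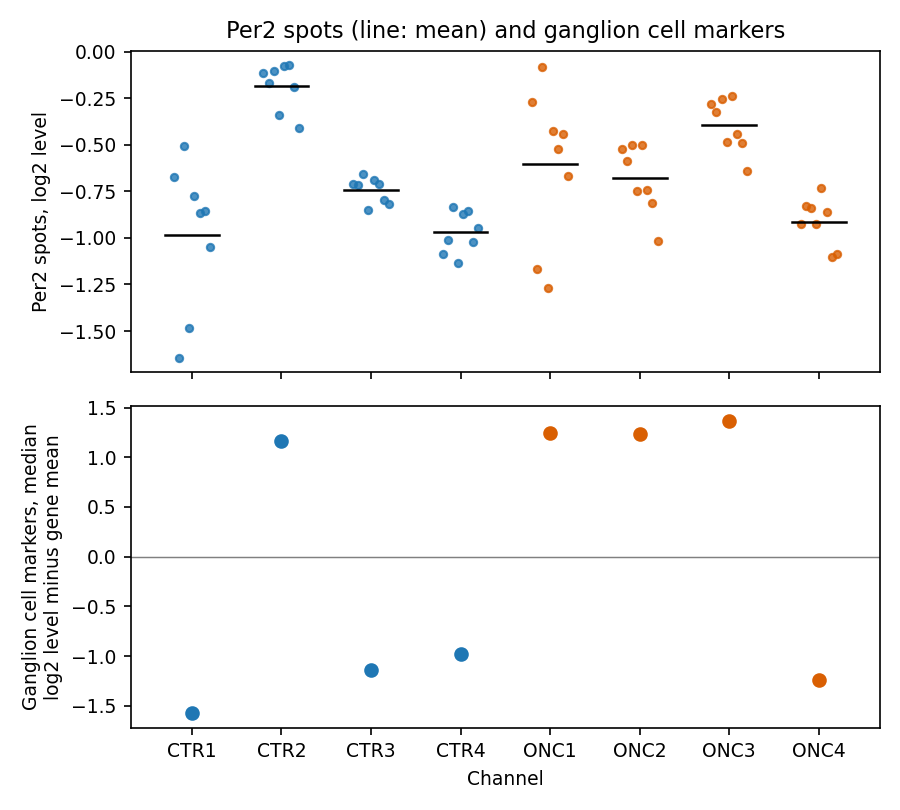
Log2 level of the 8 kept Per2 spots in each channel (upper panel, black line at the mean) and the median log2 level of 8 RGC genes after subtraction of each gene's mean (lower panel), with CTR in blue and ONC in orange. The 4 channels with the highest Per2 means, CTR2, ONC3, ONC1 and ONC2, are those with RGC medians of 1.16 to 1.37. How many of all genes divide this way was not counted.

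The 4 channels in which Per2 was highest were the same as those in which the RGC genes were high. The lowest of them was ONC2, with spots from -1.02 to -0.50, and the highest of the others was CTR3, with spots from -0.85 to -0.66. Per2 was not alone in this. Wee1, of the genes under clock or light control read below, stood at 0.89 to 1.15 in the same 4 channels and at 0.45 to 0.63 in the others. How many of all genes divide this way was not counted, so the division is not shown to be particular to Per2. The part of RGC content in the Per2 level was not tested, since channels cannot be regrouped by a measured outcome.

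The genes of the REV-ERB limb followed. Nr1d1 stood at 0.49, 0.057, 0.54 and 0.27 in CTR1 to CTR4 and at 0.28, -0.067, 0.26 and 0.34 in ONC1 to ONC4. The channels of array 2 were again the lowest, and the groups overlapped. The difference was -0.14 (95% interval -0.44 to 0.17, adjusted p = 0.641), with -0.046 without ONC2 and -0.23 without CTR2. Its probe spans 355 bases of the rn4 genome at chr10:87543165-87543519 on the minus strand, in coding sequence that an intron interrupts, and reads:

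Nr1d1 probe: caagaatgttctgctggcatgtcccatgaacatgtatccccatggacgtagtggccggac

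Nr1d2, the paralog with an overlapping repressor role, stood at -2.93, -3.24, -2.99 and -2.89 in CTR1 to CTR4 and at -2.59, -3.38, -2.66 and -2.51 in ONC1 to ONC4. ONC1, ONC3 and ONC4 lay above all CTR channels and ONC2 lay below all of them. This gene had the widest spread of the set, a 1.83-fold range over the 8 channels. The difference was 0.23 (95% interval -0.20 to 0.65, adjusted p = 0.568). It was 0.35 without array 2 and 0.63 with scaling without loess (adjusted p = 0.053), and with 1 retina left out it ran from 0.14 (without ONC4) to 0.43 (without ONC2).

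Arntl, the partner of Clock, stood at 1.55, 1.65, 1.74 and 1.63 in CTR1 to CTR4 and at 1.13, 1.76, 1.63 and 1.77 in ONC1 to ONC4. ONC1 lay below all other channels, which ran from 1.55 to 1.77. Both Arntl probes had their lowest value there, 1.97 against 2.48 to 3.15 for one and 0.29 against 0.36 to 0.62 for the other, where the gap to the next channel was small. The ONC mean differed by -0.072 (95% interval -0.40 to 0.25, adjusted p = 0.843), and without ONC1 the difference was 0.075. The second probe lies in coding sequence at chr1:171154767-171154826 of rn4, on the plus strand:

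Arntl probe: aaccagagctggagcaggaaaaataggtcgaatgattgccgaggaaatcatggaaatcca

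Clock, the DNA-binding partner of Arntl, stood at -3.68, -3.82, -3.44 and -3.37 in CTR1 to CTR4 and at -3.52, -3.93, -3.94 and -3.65 in ONC1 to ONC4. CTR4 and CTR3 were the highest channels and ONC3 and ONC2 the lowest. The difference was -0.18 (95% interval -0.49 to 0.13, adjusted p = 0.530), with 0.49 after scaling without loess and -0.59 from the scanner's processed signals. Its probes lay close to the filter limit, with a foreground of 2.07 to 6.13 times the background, and 3 of its 16 readings (2 spots in 8 channels) were not well above background by the scanner software's own test.

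Dbp, a transcription factor and one of the most strongly cycling outputs of the loop, stood at 4.78, 4.69, 4.87 and 4.91 in CTR1 to CTR4 and at 4.86, 4.73, 4.95 and 5.28 in ONC1 to ONC4. ONC4 was the highest channel and CTR2 the lowest, with a range of 0.59. ONC was higher on 4 of 4 arrays, by 0.042 to 0.37, and the means differed by 0.14 (95% interval -0.13 to 0.42, adjusted p = 0.583). Without ONC4, the channel with the lowest foreground, the difference was 0.037, and with scaling without loess it was -0.079. Its probes did not give the same difference. The probe in coding sequence at chr1:96178064-96178123 of rn4 (plus strand) gave 0.30, and the other gave -0.0071. A further Dbp probe carried an outlier flag and was left out. The coding probe reads:

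Dbp probe: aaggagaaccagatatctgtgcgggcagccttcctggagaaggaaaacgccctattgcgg

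**Figure D3:**
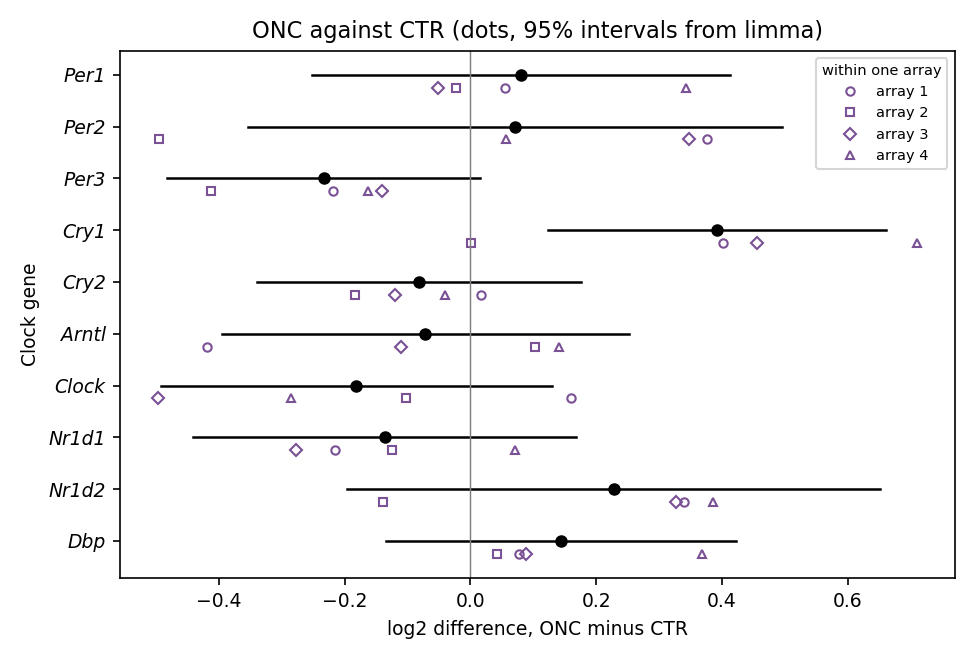
Log2 difference of ONC minus CTR for each clock gene (horizontal axis), with the mean as a black dot, its 95% limma interval as a line, and the difference within each of the 4 arrays as open symbols. The Cry1 interval, 0.12 to 0.66, is the one that does not include 0, and no adjusted p is under 0.05.

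The spread between retinas was close to that of the median gene. Over the 8 channels the highest level of a clock gene exceeded its lowest by 1.36-fold (Cry2) to 1.83-fold (Nr1d2). The SD of the log2 level had a median of 0.21 over the clock genes and of 0.20 over all genes. Ranked among all genes tested, the clock genes' SDs had a median percentile of 54.9, from 30.5 for Cry2 to 80.6 for Nr1d2, and 7 of the 10 lay above the median gene. Dbp stood at percentile 43.3 and Nr1d1 at 51.6. Under the alternatives the median percentile ran from 39.5 to 60.1. These percentiles are a description of 8 channels and carry no test.

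A difference in phase would show as opposite movement of the arms, and the pairs of genes were read for it. Of the 45 pairs, 25 had a positive and 20 a negative Pearson's r across the 8 channels. By exact permutation tests (two-sided), 9 pairs had p under 0.05 and 0 passed Benjamini-Hochberg adjustment over the 45. Spearman's rho gave 6 and 0. All 9 pairs were positive. With the mean of each labeled group removed, 10 pairs had p under 0.05, all positive, and 0 passed (smallest adjusted p = 0.078). That value is Per1 with Cry2, at the smallest p that permuting within groups can give (0.0017). A lone pair could therefore not pass. The permutations treat the 8 channels as independent, although channels of the same array share a hybridization.

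The pair with the smallest p was Cry2 with Nr1d1 (r = 0.88, rho = 0.79, n = 8, exact permutation p = 0.0040 and 0.028, adjusted p = 0.131 and 0.314). The 2 channels farthest from the median of Cry2 were CTR2 and ONC2, and without them r was 0.41. Per1 with Nr1d2 followed (r = 0.85, rho = 0.79, exact permutation p = 0.010 and 0.028, adjusted p = 0.131 and 0.314), with r = 0.48 when those same channels were left out. That last value was 0.94 with scaling without loess, 0.98 from the scanner's processed signals and 0.73 with normexp. Nr1d2 with Dbp, both driven by the same arm, had r = 0.78 and rho = 0.79 (exact permutation p = 0.012 and 0.028, adjusted p = 0.131 and 0.314), and r = 0.75 without ONC2 and ONC4. Without array 2, 0 of the 45 pairs had p under 0.05 over the 6 channels left. Of the 9 pairs, which were picked by their p over 8 channels, 8 had a lower r there. They ran from 0.78 for Cry2 with Clock (0.75 over 8 channels) and 0.69 for Nr1d2 with Dbp to 0.21 for Per1 with Cry2 (0.81 over 8 channels) and -0.40 for Cry2 with Nr1d2 (0.72 over 8 channels). Pairs outside these 9 moved both ways. For Cry1 with Nr1d2 r went from 0.30 to 0.90 (exact permutation p = 0.054), and for Per3 with Dbp from -0.014 to -0.72.

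**Figure D4:**
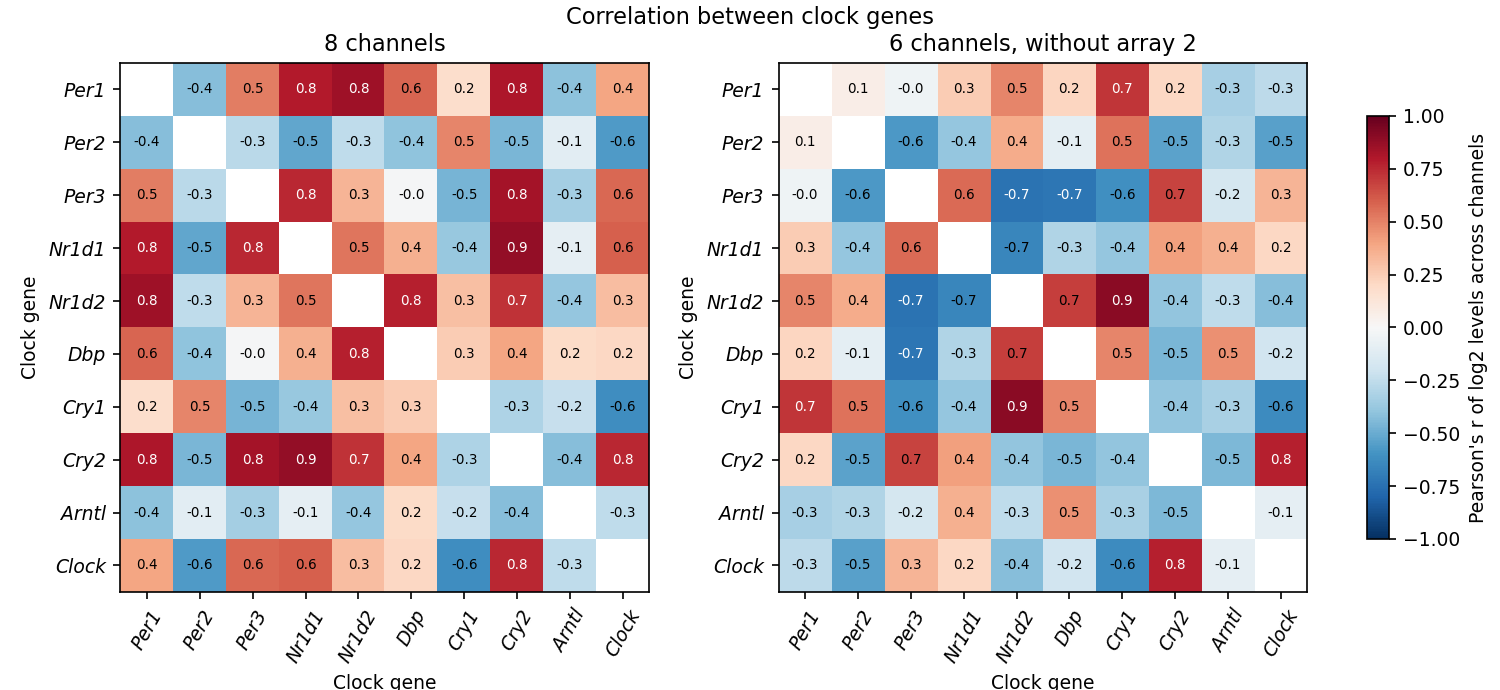
Pearson's r of log2 levels between each pair of clock genes, over 8 channels (left) and over the 6 channels left when array 2 is dropped (right), on a color scale from -1 (blue) to 1 (red). Most of the dark red cells among Per1, Per3, Nr1d1, Nr1d2 and Cry2 on the left are paler on the right, and the Arntl row stays pale in both.

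The pair that sets the arms against each other, Dbp with Arntl, had r = 0.20 and rho = 0.14 (n = 8, exact permutation p = 0.543 and 0.752, adjusted p = 0.660 and 0.891). Without ONC1 and ONC4, the channels farthest from the Arntl median, r was -0.15, and without array 2 it was 0.46. Arntl had a negative r with 8 of the other 9 genes, from -0.43 with Cry2 to -0.094 with Nr1d1, with 0.20 for Dbp. Of all genes tested, 54.7% had a negative r with Arntl, and the r of the clock genes stood at percentiles from 9.19 (Cry2) and 10.2 (Per1) to 43.8 (Nr1d1) and 74.7 (Dbp) among them. The smallest exact permutation p of these was 0.228. Of the 12 pairs between Arntl or Clock and the 6 genes Dbp, Per1, Per2, Per3, Nr1d1 and Nr1d2, 6 were negative. Clock was negative with Per2 (-0.57) and positive with the rest, from 0.21 (Dbp) to 0.60 (Nr1d1). The other negative pairs were those of Arntl. Of the 15 pairs within those 6 genes, 9 were positive. Per2 had a negative r with each of the other 5. Signs within the arm changed in both directions without array 2, where 7 of the 15 were positive: r of Per2 with Nr1d2 went from -0.25 to 0.37, that of Nr1d1 with Nr1d2 from 0.54 to -0.65 and that of Per3 with Nr1d2 from 0.34 to -0.74.

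The arms were also put together as a contrast for each channel, the mean of those 6 genes less the mean of Arntl and Clock, after each gene's channel mean was subtracted. It stood at 0.071, -0.030, -0.14 and -0.21 in CTR1 to CTR4 and at 0.27, -0.22, 0.22 and 0.040 in ONC1 to ONC4. The highest values were those of ONC1 and ONC3 and the lowest those of ONC2 and CTR4, so both ends of the range included ONC channels. The mean was -0.076 ± 0.12 (SD, n = 4) in CTR and 0.076 ± 0.22 (SD, n = 4) in ONC, a difference of 0.15. It was 0.27 without array 2, 0.46 from the scanner's processed signals and 0.0073 when channels were scaled without loess. The contrast is a score over chosen genes and was given no p.

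**Figure D5:**
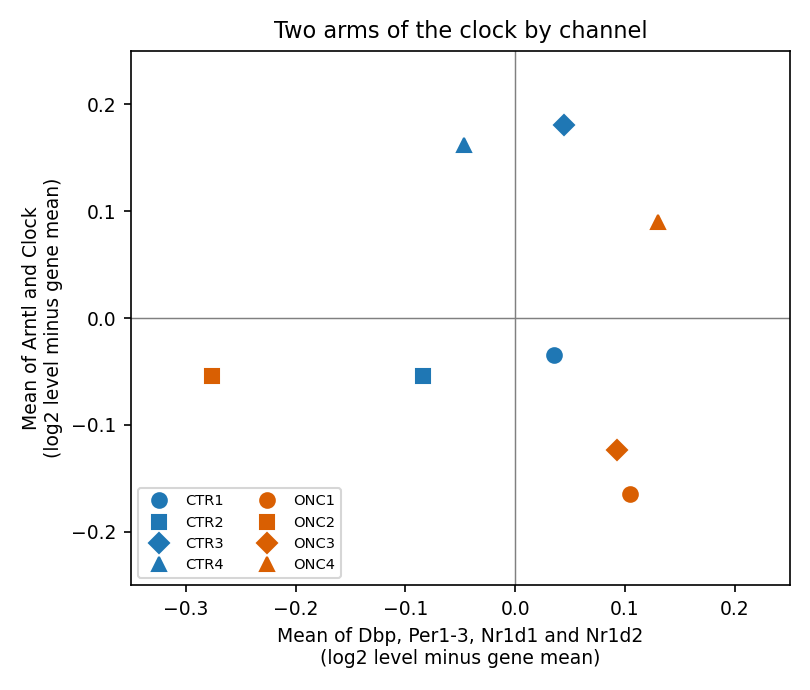
Mean level of Dbp, Per1 to Per3, Nr1d1 and Nr1d2 (horizontal axis) against the mean level of Arntl and Clock (vertical axis) in each channel, both in log2 units less the gene means. ONC1 and ONC3 lie at the lower right (0.10 and -0.17, 0.093 and -0.12), and the other channels do not lie on a line from upper left to lower right.

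Array 2 moved with several of these results. In 5 of the 10 clock genes (Per1, Cry2, Nr1d1, Nr1d2 and Dbp) both channels of array 2 lay below the other 6, as they did in 17.4% of all genes and in 31.3% of the 4076 dimmest genes tested. Of the 5, only Per1 and Nr1d2 belong to those dimmest genes, which lie under -2.23. The dimmest genes were lower on array 2 as a whole, with a median of -0.17 in CTR2 and -0.16 in ONC2 against its gene means, and of -0.017 to 0.16 in the other channels. Aquantile makes the distribution of the average intensity of the 2 channels equal between arrays and leaves the ratios within an array as they are. With it r was lower in 8 of the 9 pairs, down to 0.27 for Cry2 with Clock, and that of Cry2 with Nr1d1 stayed at 0.88. The part of array 2's signal distribution in the correlations was not tested further.

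The other genes of the loop, a list of 26 regulators, were read in the same fit. Of these, 21 were measured, 11 with a higher and 10 with a lower ONC mean, a median difference of 0.020, and 0 had an adjusted p under 0.05. Unadjusted p was under 0.05 in 4, against 18.6% of all genes, and 2 passed with the array as a block, against 7.69%. Bhlhe40 (DEC1), a repressor that competes at E-boxes, stood at -1.48, -1.72, -1.75 and -1.40 in CTR1 to CTR4 and at -1.01, -1.22, -0.97 and -0.92 in ONC1 to ONC4. Every ONC channel lay above every CTR channel, and the difference was 0.56 (95% interval 0.31 to 0.81, adjusted p = 0.059). It passed with the array as a block (adjusted p = 0.029), with Aquantile (0.033) and with scaling without loess (0.011).

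Arntl2, the paralog of Arntl, was lower on 4 of 4 arrays with a difference of -0.39 (adjusted p = 0.170, and 0.033 with the array as a block). Tef, a relative of Dbp that binds the same D-box, differed by 0.23 (adjusted p = 0.243), and its groups did not overlap. Gsk3b, a kinase that acts on clock proteins, differed by 0.29 (adjusted p = 0.236), and Usp2, a deubiquitinase, by 0.34 (adjusted p = 0.385). Nfil3, the repressor that opposes Dbp at the D-box, varied little, with an SD at percentile 3.83 and a difference of -0.033. Npas2, which can stand in for Clock, differed by 0.15 (adjusted p = 0.421) and passed only with scaling without loess (0.51, adjusted p = 0.010).

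Genes known to be under clock or light control in the retina were a list of 13, with 11 measured, 6 with a higher and 5 with a lower ONC mean, a median difference of 0.00031 and 0 called (limma, 1 with unadjusted p under 0.05, against 18.6% of all genes). Asmt, the last enzyme of melatonin synthesis, had the widest range of them from lowest to highest channel, 3.22-fold. It stood at -0.91, 0.38, 0.24 and 0.25 in CTR1 to CTR4 and at -1.30, -0.25, -0.39 and -0.42 in ONC1 to ONC4. It was lowest in both channels of array 1 and lower in ONC on 4 of 4 arrays (difference -0.58, adjusted p = 0.381, and 0.029 with the array as a block). Aanat, the enzyme before it and in rodents strongly elevated at night, stood at -2.63, -3.25, -3.66 and -3.54 in CTR1 to CTR4 and at -2.80, -3.16, -3.37 and -3.03 in ONC1 to ONC4. Both channels of array 1 were the highest, where Asmt was lowest. Vip, a peptide of amacrine cells, differed by -0.35 (adjusted p = 0.248). Opn4, the melanopsin that makes some RGCs light-sensitive, was between 1.72 and 2.46 in CTR2, ONC1, ONC2 and ONC3 and between 0.87 and 1.32 in the others, the division of the RGC genes.

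Genes that answer quickly to neural activity and genes driven by glucocorticoid, which also resets clocks, were read for signs of the time or manner of dissection. Of the 14 activity genes measured, 7 had a higher and 7 a lower ONC mean, with a median difference of 0.00033, 0 passed and 4 had unadjusted p under 0.05, against 18.6% of all genes. Fos (-0.62, adjusted p = 0.089), Junb (-0.59, adjusted p = 0.113) and Rasd1 (-0.29, adjusted p = 0.156) had lower ONC means, and Fosb had a higher one (0.49, adjusted p = 0.239). With the array as a block 3 of the 14 passed, against 7.69% of all genes: Junb (adjusted p = 0.045), Rasd1 (0.0496) and Fosb (0.039), with 0.052 for Fos. Of the 9 glucocorticoid targets measured, 7 had a higher and 2 a lower ONC mean, with a median difference of 0.077, 0 passed and 3 had unadjusted p under 0.05, against 18.6% of all genes. Tsc22d3 (GILZ) differed by 0.74 (adjusted p = 0.058), Klf9, a clock-linked factor, by 0.55 (adjusted p = 0.055) and Sgk1 by 0.37 (adjusted p = 0.179). With the array as a block 2 of the 9 passed, Tsc22d3 (adjusted p = 0.046) and Klf9 (0.033), against 7.69% of all genes.

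The genes most like Dbp and Arntl across the 8 channels were sought among the 10705 tested genes whose names are RefSeq symbols. Closest to Dbp were Rundc3b (r = 0.99), Mib1 (0.98), Ppil4 (0.97), Camsap3 (0.97) and Zbtb43 (0.97), and most opposite were Alg5 (-0.97), Kcnc1 (-0.97), Pigc (-0.96), Surf1 (-0.96) and Serp1 (-0.96). All 5 of the first were highest in ONC4 and all 5 of the second lowest there. ONC4 was also the dimmest channel, with a median foreground of 218.1. In it 66.8% of spots were well above background, against 72.5% to 79.4% in the other channels. Before loess the median log2 ratio of Cy5 to Cy3 was 1.22 on array 4 and 0.32 to 0.50 on the other arrays. The part of this in the likeness to Dbp was not tested. Closest to Arntl were Car9 (0.99), Cpsf6 (0.94), Enah (0.92), Sorcs1 (0.91) and Smndc1 (0.91), all lowest in ONC1, and most opposite were Taf6l (-0.92), Srrm3 (-0.91), Map1a (-0.91), Mitd1 (-0.89) and Gpr137c (-0.89), all highest in ONC1. Over all genes tested, 133 had r of 0.9 or more with Dbp and 12 with Arntl. Among the clock genes, the one most like Dbp was Nr1d2, above 94.0% of all genes in its r, and 0.20 for Arntl stood at percentile 49.0.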

How the data were processed

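Single retinas were hybridized onto 4 two-color Agilent arrays on 1 slide. The authors deposited spot intensity values as the scanner software wrote them (Feature Extraction 12.0.3.1 per the file headers, 11.1.19.1 per the submitters' processing notes). The mean foreground and median local background are uncorrected, and the processed signal is background-subtracted and dye-normalized. Each array has 44254 spots, of which 1377 are controls. No spot other than controls was saturated, and the number of arrays limits the precision.

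Controls, spots with an outlier flag and spots under 2 times background in any channel were left out, which kept 27371 spots and 18599 probes. Background was subtracted, loess (span 0.3) was run per array, channels were centered on their medians, and spots and then probes were averaged per gene name. Differences were tested with limma 3.58.1 (R 4.3.3), without a block as in the study's unpaired test, with Benjamini-Hochberg adjustment. Pairs were tested over all 40320 permutations (Python 3.11.15, numpy 2.4.6). The scripts were tested on simulated data. Nothing says that same-numbered retinas share more than an array. Probe positions are those of the files (rn4). The clock genes and gene lists were chosen with earlier results of these data known. Named in the text were all 10 clock genes, genes of the 4 pathway lists with unadjusted p under 0.05 or among the 4 largest differences over those lists together, and the 5 most like and most opposite genes for Dbp and Arntl. Nfil3, Npas2, Usp2, Aanat, Opn4 and Wee1 were named after their values were seen. Alternatives were median scaling, Aquantile, processed signals, normexp (offset 50), other spot filters, the brightest probe, the array as a block, each retina left out, labeled group means removed (pairs), and the methods' t-test.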

Additional observations from a re-analysis of the deposited data

Results flagged for a closer look

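Cry2 in CTR stood out by the gap between CTR2 and its group. The level of CTR2 was -1.39 and those of the other CTR channels were -1.15 to -1.17, so the gap to the nearest took up 0.932 of the group's whole range. Its partner on array 2, ONC2, was also the lowest of its group, at -1.58. Of 22 groups of 4 read in this way 1 stood out, and chance gives about 1 in 20.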

How the results depend on the processing

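Clock genes called numbered 0 under the alternatives other than scaling of the channels to their medians without loess, where Per1 was called (1 of 10). Where few or no genes at all were called, as in the counts given here, that 0 says nothing about the clock genes. The methods' t-test was run on unlogged levels as normalized here and without the study's fold-change cut-off, so it does not repeat the study's calls. It gave 1 clock gene before adjustment (16.4% of all genes) and 0 after it, when 0 of all 16307 genes passed. The count of all genes called, 81, was 3194 with median scaling, 412 with Aquantile, 21 with processed signals, 14 with normexp, 0 with normexp and no filter on dim spots, 123 with the filter on well above background, 124 with the brightest probe, 1254 with the replicate block and 1 without array 2, and 0 to 38 when a retina was left out. The replicate block changed no call of a clock gene. Regulators of the loop called numbered 2 with median scaling, 1 with Aquantile and 2 with the replicate block. Pairs of clock genes called, 0 here, numbered 3 with median scaling, 1 with processed signals and 6 with normexp, all positive, and Per1 with Nr1d2 was among them each time (r = 0.94, 0.94 and 0.96). Without array 2, over 6 channels, the smallest exact permutation p possible is 0.0014, which is 0.063 after adjustment for a lone pair. A lone pair could therefore not pass there, and none of these pairs did (adjusted p of 0.063 to 0.699). There r of Per1 with Nr1d2 was 0.94 with median scaling, 0.98 with processed signals and 0.73 with normexp, that of Clock with Nr1d2 was 0.88 with median scaling, as over 8 channels, and the other pairs had r of 0.44 to 0.69. With labeled group means removed 0 pairs passed, where a lone pair could not, and r of Dbp with Arntl was 0.31. The pairs, Dbp with Arntl included, were not tested within arrays, which leaves 4 differences and fewer than the 6 values asked of a correlation here, and the contrast of the arms has no value under the filter on well above background, which drops Clock. That contrast was 0.46 with processed signals and 0.088 to 0.25 with a retina left out. The median percentile of the SD was 48.9 with median scaling, 48.5 with Aquantile, 59.3 with processed signals, 60.1 with normexp, 39.5 with normexp and no filter, 59.1 with the brightest probe and 51.3 to 58.7 with a retina left out. The sign of Dbp with Arntl turned without ONC4 (r = -0.18, and up to 0.39 without another retina). Differences that were not called changed sign in some settings. With a retina left out, Arntl ran from -0.14 to 0.075 (without ONC1), Cry2 from -0.14 to 0.010 (without ONC2), Per1 from -0.00059 (without CTR2) to 0.20, and Per2 from -0.016 (without CTR1, with -0.012 without CTR4 and -0.013 without ONC3) to 0.25. The other genes kept their sign, with 0.037 to 0.22 for Dbp, 0.14 to 0.43 for Nr1d2, -0.23 to -0.046 for Nr1d1, -0.26 to -0.11 for Clock, -0.29 to -0.14 for Per3 and 0.31 to 0.49 for Cry1. Clock (0.49) and Dbp (-0.079) changed sign with median scaling, and Dbp (-0.0071) with the brightest probe. The cause of these shifts was not tested. Leaving out array 2 was chosen after seeing the data.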
